A study of Homo sapiens with 101 samples.

Results

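HT1080 cells, an established human fibrosarcoma line, were exposed to ethylnitrosourea (ENU) at 2 mM and compared with the vehicle control that the labels call DMSO pooled. The comparison takes the 6 arrays titled ENU and the 6 titled DMSO pooled, so 12 of the 101 arrays of the series. All these cells grew in medium with 10% serum, received compound or vehicle 24 h after seeding and carried 0.1% vehicle, and the exposure time is not given in the sources used here. The series gave each of 11 compounds at 1 dose picked for a 1.5-fold rise in total p53 protein. The tie of ENU to this control was inferred from the labels, which do not say what was pooled, and the same control also serves neocarzinostatin (NCS), mitomycin C, H2O2, GAD and tBHQ. Further tests used 6 arrays of NCS at 10 ng/ml, 6 of methyl methanesulfonate (MMS) at 200 µM and 6 of its own control, titled MMS CTL. Serum, vehicle percent and time after seeding were the same for these groups. The values are log2 probe set summaries of total RNA, with 1 probe set per gene, and 11496 genes were tested. Nothing in the labels says that the replicates were separate cultures, so p-values measure only the spread between these samples, which may be technical.

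ENU is an alkylating agent that transfers an ethyl group to DNA, on oxygen as well as ring nitrogen atoms of the bases. Ethyl groups on the oxygen of guanine are removed directly by the protein MGMT, many of those on nitrogen are cut out by base excision repair that starts with the glycosylase MPG, and bulkier lesions are handled by nucleotide excision repair. Lesions that stall replication or transcription activate the kinases ATM and ATR and stabilise p53, which then raises transcription of genes for cell cycle arrest, cell death, repair and stress defence. MMS alkylates mainly ring nitrogens, and NCS cuts DNA strands.

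The cells matched their label. Of 13 mesenchymal and fibrosarcoma markers measured, 12 had a group mean of at least 4 in both groups and 10 a control mean of at least 8, FN1 at 11.92 with ENU and 12.28 in control, and none was called by limma (0 higher and 3 lower at an unadjusted p under 0.05). Epithelial, blood, endothelial, neural and liver markers all stayed under 4 in both groups. The 5′ and 3′ control probe sets gave no sign of poorer RNA across the ENU group, since the 3′ minus 5′ difference for ACTB had a median of 0.96 in both groups. It ran from 0.85 to 1.26 with ENU, highest in ENU replicate 2, and from 0.78 to 1.04 in control. The median was 0.9 with MMS and 0.79 in its own control.

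Control replicates 1 and 2 stood apart from the other 4 controls, in the direction of ENU. Among the 599 genes called higher with control replicate 2 left out, that library was the nearest to ENU of the 6 controls in 268 (44.7%), and it lay at the median 28.6% of the way to the ENU mean on the log2 scale. Control replicate 1 was likewise nearest in 204 of 613 genes (33.3%), at 21.3% of the way, whereas the other 4 controls were nearest in 5.6% to 13.6%. Among genes called lower, control replicate 1 was nearest in 48.1%, at 34.6% of the way, and replicate 2 in 30.4%, at 27.8%. The crystallin CRYAB showed the shift of control replicate 2 most clearly. It read 4.84 in control replicate 2, 2.77 to 2.96 in the other 5 controls, and 2.71 to 3.46 on all 28 arrays of NCS, mitomycin C, H2O2, GAD and tBHQ. The part of these libraries in the results was not tested beyond leaving them out. Without replicate 2 the calls were 599 higher and 759 lower, and without both they were 708 and 922, so the values with all 6 controls were the lower counts. Among the ENU samples, replicate 3 lay towards the controls. It was the nearest of the 6 to control in 221 of 590 higher genes (37.5%), at 21.3% of the way, and in 31.3% of lower ones.

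With ENU, 1250 genes changed (548 higher, 702 lower), which is 10.9% of all genes tested, 4.77% higher and 6.11% lower. A call needed at least 1.5-fold with an adjusted p below 0.05, and 347 of these changed at least 2-fold. In 913 of them (7.94% of all genes) every ENU sample lay on 1 side of every control. The median change of all genes was 0.01, and every change given below is on the log2 scale unless a fold is named. In bulk RNA, fewer cells of a type and less RNA per cell cannot be told apart.

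The p53 target genes rose together. Of 72 tested members of 6 p53 lists, 39 rose and none fell (54.2%, against 4.77% of all genes), with a median change of 0.66 beside 0.01 for all genes. The mean over these 72 genes ran from 8.49 to 8.73 in the ENU samples and from 7.78 to 8.04 in the controls, so the groups did not overlap. In 43 of the 72, each ENU sample lay above each control, as in 8.68% of all genes. Without control replicate 2 the same 39 genes rose, and 40 in all. The lists are ordered here by what their members do.

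Among regulators of p53 itself, 6 of 10 rose. MDM2, the ubiquitin ligase that targets p53 for degradation, read 10.24, 10.35 and 10.39 with ENU (lowest, median and highest of 6) and 9.33, 9.69 and 10.03 in control. Its change was 0.66 ± 0.10 (SE, adjusted p = 0.00021), and the groups did not overlap. PPM1D, the phosphatase that removes damage-induced phosphates from p53 and its kinases, rose far more, from 7.38, 7.54 and 8.56 to 9.74, 9.83 and 10.05, a 4.3-fold change (2.10 ± 0.17, adjusted p = 1.9e-06). TP53INP1, a stress-induced p53 partner, rose by 1.84 and PHLDA3, an inhibitor of AKT, by 1.25. TP53RK, a kinase of p53, rose by 0.98.

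Among genes of cell cycle arrest, 5 of 9 rose, with a median change of 0.73. CDKN1A, the inhibitor of cyclin-dependent kinases through which p53 halts the cycle, read 8.83, 9.06 and 9.17 with ENU against 8.02, 8.25 and 8.41 in control. Its change was 0.81 ± 0.08 (adjusted p = 1.1e-05), or 1.75-fold, with no overlap, and it fell to 0.46 and lost its call where both of its probe sets were averaged. SFN (14-3-3 sigma), which holds CDK1 in the cytoplasm, rose by 1.86 (adjusted p = 0.0012), and by 3.32 on another of its probe sets. SERTAD1 rose by 1.12 and PLK3, a stress-responsive kinase, by 1.09 (0.50 and not called where its probe sets were averaged).

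Genes of cell death rose in 6 of 15 members, with a median change of 0.48. FAS, the death receptor, read 9.72, 9.85 and 10.08 with ENU and 7.37, 7.52 and 8.65 in control, a 4.25-fold rise (2.09 ± 0.20, adjusted p = 6.7e-06). TP53I3, an oxidoreductase induced by p53, rose 5.57-fold (2.48 ± 0.22, adjusted p = 4e-06), from 8.28, 8.47 and 9.68 to 10.64, 11.18 and 11.52. Both had their highest control value in replicate 2, and without it their changes were 2.26 and 2.68. APAF1, the scaffold of the apoptosome, rose by 1.53 ± 0.13 (adjusted p = 2.6e-06). BBC3 (PUMA), a pro-apoptotic BH3 protein, rose by 0.80 with overlapping groups (5.14 to 5.92 with ENU, 4.33 to 5.22 in control). BAX, which permeabilises the mitochondrial outer membrane, was 0.42 higher with no overlap (adjusted p = 0.00069), below the 1.5-fold minimum.

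Of 10 repair genes under p53 control 6 rose, with a median change of 0.66 and a highest of 0.83. DDB2, which recognises damaged bases for nucleotide excision repair, rose 1.59-fold (0.67 ± 0.08, adjusted p = 2.8e-05), from 8.47, 8.67 and 8.82 to 9.20, 9.28 and 9.53. XPC, its partner in damage recognition, rose by 0.65 ± 0.09 (adjusted p = 0.00013), and POLH, a polymerase that copies past lesions, by 0.83 ± 0.10 (adjusted p = 4.2e-05). RRM2B, which supplies nucleotides for repair, rose by 0.83, GADD45A by 0.73 and PCNA, the sliding clamp, by 0.70. No other repair member was called.

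Metabolic and stress-defence targets rose most often, 10 of 14 with a median change of 1.01. ACER2, a ceramidase, was under 4 in 5 of 6 controls (3.21, 3.44 and 4.12) and at 5.98, 6.15 and 6.46 with ENU, so it rose at least 4.54-fold (adjusted p = 1.2e-07). In such lower bounds a group mean under 4 was set to 4. SESN1, a sestrin that restrains mTORC1, rose 3.17-fold (1.66 ± 0.13, adjusted p = 1.7e-06), from 7.82, 8.06 and 8.61 to 9.57, 9.78 and 9.94, and KITLG, the ligand of KIT, rose by 1.64, though by 0.52 and with no call where its probe sets were averaged. SPATA18, which acts in mitochondrial quality control, rose at least 2.02-fold. GDF15, a secreted stress cytokine, rose 1.97-fold (0.98 ± 0.17, adjusted p = 0.00068), from 10.59, 11.40 and 11.61 to 11.85, 12.33 and 12.51. Of 18 other consensus targets 8 rose, among them ANKRA2 by 1.42, SUSD6 by 1.36 and LAPTM5 at least 1.77-fold.

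**Figure D1:**
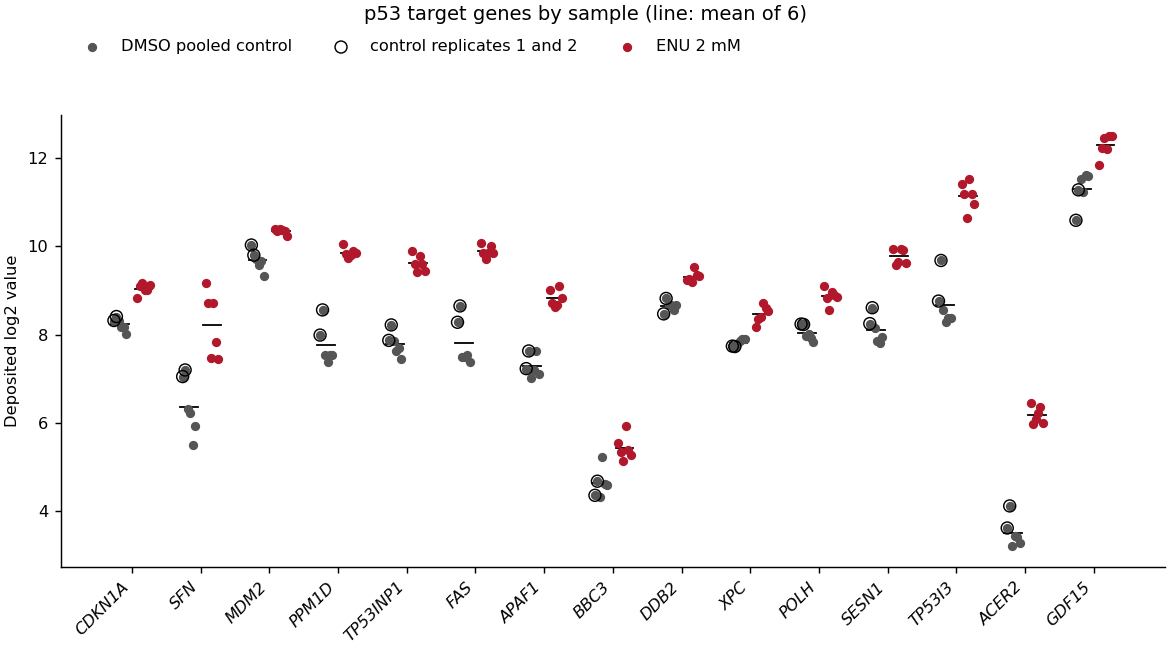
Deposited log2 value of 15 p53 target genes in each of the 6 ENU samples (red) and 6 DMSO pooled controls (grey, with replicates 1 and 2 ringed); lines are group means. Only BBC3 has overlapping groups, and ringed control replicate 2 is the highest control for FAS, PPM1D and TP53I3.

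NCS and MMS, given at doses picked for the same rise in p53 protein (10 ng/ml and 200 µM), allow the p53 genes to be read across agents. NCS was set against the same control, so the test is the direct one of ENU against NCS samples, while MMS has its own control and the test is the difference of both effects. Doses differ in kind and size. CDKN1A changed by 0.81 with ENU, 1.05 with NCS and 1.10 with MMS, and ENU minus NCS was -0.25 ± 0.10 (adjusted p = 0.082). MDM2 changed by 0.66, 0.92 and 0.92, with ENU minus NCS -0.26 ± 0.07 (adjusted p = 0.012, below 1.5-fold). DDB2 (0.67, 0.88 and 0.52) and XPC (0.65, 0.78 and 0.68) were not called different either, at adjusted p = 0.2 and 0.46 against NCS. Several targets did differ. FAS changed by 2.09 with ENU, 0.96 with NCS and 0.98 with MMS, and was 1.13 ± 0.08 higher in ENU than in NCS samples (adjusted p = 8.4e-07) with an effect 1.11 ± 0.26 above that of MMS (adjusted p = 0.0042). TP53I3 was 1.35 higher than in NCS (adjusted p = 1.5e-05), PPM1D 1.06 (adjusted p = 1.3e-06), ACER2 1.10 (adjusted p = 7.2e-06) and SESN1 0.80 (adjusted p = 2e-05). APAF1 changed by 0.19 with NCS (adjusted p = 0.35) and by 0.96 with MMS, and was 1.34 higher in ENU than in NCS samples (adjusted p = 1e-06). Of the 72 genes, 14 were higher and 1 lower in ENU than in NCS samples, where 5.3% and 8.16% of all genes were. Against MMS, 15 effects were larger and 1 smaller, where 4.24% and 4.29% of all were.

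Promoter windows of 3 of these genes are shown because letters close to the p53 consensus can be read in them. The capitals mark the best match to the p53 consensus without a spacer. Matches with a spacer were not searched, so the capitals need not cover the whole response element. In DDB2 the letters gggcatgttt, which also match part of the consensus, follow the capitals after 1 base and are left in lower case. RefSeq windows on GRCh38.p14 run from 250 bases before to 50 after a start, and the match has 1 mismatch in DDB2 (chr11:47214724-47215023, plus strand) and 2 in MDM2 (chr12:68808767-68809066, plus) and FAS (chr10:88991181-88991480, plus).
DDB2: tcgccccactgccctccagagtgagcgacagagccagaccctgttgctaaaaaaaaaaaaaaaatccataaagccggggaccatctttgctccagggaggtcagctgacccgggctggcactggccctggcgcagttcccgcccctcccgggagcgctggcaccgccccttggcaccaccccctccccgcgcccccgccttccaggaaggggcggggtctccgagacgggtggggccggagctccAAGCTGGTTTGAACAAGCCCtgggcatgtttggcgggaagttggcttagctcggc
MDM2: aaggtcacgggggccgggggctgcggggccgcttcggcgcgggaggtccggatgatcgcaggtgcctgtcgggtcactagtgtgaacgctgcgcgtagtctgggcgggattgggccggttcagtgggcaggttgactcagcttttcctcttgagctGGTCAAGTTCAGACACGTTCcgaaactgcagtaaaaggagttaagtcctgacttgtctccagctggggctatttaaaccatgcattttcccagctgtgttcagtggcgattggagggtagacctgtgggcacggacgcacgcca
FAS: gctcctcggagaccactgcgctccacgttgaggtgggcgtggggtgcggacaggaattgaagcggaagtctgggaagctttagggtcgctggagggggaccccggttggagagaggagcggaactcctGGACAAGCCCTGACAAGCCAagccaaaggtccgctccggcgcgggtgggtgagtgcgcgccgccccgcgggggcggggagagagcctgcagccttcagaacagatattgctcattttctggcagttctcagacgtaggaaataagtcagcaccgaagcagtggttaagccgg
Windows were found for 9494 of the 11496 genes. At most 2 mismatches occurred in 35 (0.369%) of them, in 7 of 439 genes that rose (1.59%), in 0 of 576 that fell and in 3 of 34 risen p53 targets. No match says only that these letters are not in this window.

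Genes that repair alkylation showed little change as a group. Of 28 members of direct reversal and base excision repair 2 rose and 2 fell, with a median of -0.06. That is 7.14% each way, beside 4.77% higher and 6.11% lower of all genes. MGMT, which takes the alkyl group from guanine onto itself, read 5.72, 6.05 and 6.13 with ENU and 5.99, 6.32 and 6.41 in control (-0.23 ± 0.10, adjusted p = 0.087), and the groups overlapped. MPG, the alkyladenine glycosylase, gave -0.20 (adjusted p = 0.28) and ALKBH2, a direct demethylase, -0.37 (adjusted p = 0.039, below 1.5-fold). NEIL3, a glycosylase of replicating cells, rose by 0.92 ± 0.20 (adjusted p = 0.0029), and TDG, which removes mispaired thymine, by 0.86 ± 0.15 (adjusted p = 0.00058). UNG, the uracil glycosylase, fell by 0.90 ± 0.16 (adjusted p = 0.00089), and NTHL1 fell by 0.62, though by 0.57 and below the fold minimum without control replicate 4.

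The other repair systems moved in few members, where 4.77% of all genes rose and 6.11% fell. In nucleotide excision repair DDB2 and XPC were the 2 of 22 that rose (9.09%). None of the 6 tested mismatch repair genes was called by limma (0 higher and 4 lower at an unadjusted p under 0.05), MSH6 reading -0.53 and PMS1 -0.51 with no overlap. In damage tolerance POLH rose, whereas ZRANB3, an annealing helicase at stalled forks, fell by 0.97 (by 0.36 and not called where its probe sets were averaged) and PRIMPOL, which reprimes synthesis past lesions, by 0.68. RAD51C was the 1 of 25 homologous recombination and Fanconi genes that rose (0.84), a share of 4.0% and near that of all genes. The damage kinase gene ATM was the 1 of 23 checkpoint members (4.35%) that changed. It fell by 0.61 ± 0.11 (adjusted p = 0.00086), and its change was under 1.5-fold when ENU replicate 1 (-0.55), control replicate 3 (-0.57) or control replicate 5 (-0.56) was left out. Averaging its probe sets gave -0.22 (adjusted p = 0.061). Against NCS 14 of the 25 recombination genes were higher and none lower, where 5.3% and 8.16% of all genes were. NCS alone had 6 of them lower and MMS had 13 higher (0.966% of all genes were lower with NCS and 4.46% higher with MMS). The effect of ENU was below that of MMS in 11, as in 4.29% of all genes.

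Replication genes fell in part. Of 44 genes of G1/S and DNA replication 10 fell and 1 rose (PCNA), with a median of -0.16, and 6.11% of all genes fell. MCM6, a subunit of the replicative helicase, read 8.67, 9.05 and 9.43 with ENU and 9.93, 10.06 and 10.49 in control, a 2.13-fold fall (-1.09 ± 0.13, adjusted p = 4e-05) with no overlap. POLA1, the catalytic subunit of the primase polymerase, fell 2.53-fold (-1.34 ± 0.14, adjusted p = 1.2e-05), from 6.89, 7.12 and 7.43 to 5.45, 5.72 and 6.13. The helicase subunits MCM3 and MCM5 fell by 0.97 and 0.94. CCNE2 (-0.09) and CDC6 (-0.17), both targets of E2F, were not called and their groups overlapped.

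Few mitotic genes were called. Of 51 genes of G2/M and mitosis 2 rose and none fell, where 4.77% of all genes rose and 6.11% fell, so the share that rose was near the background. Their median was 0.16, and 41 of the 51 had a change above 0, as had 5889 of all 11496 genes. CDK1, the kinase that drives entry into mitosis, rose 1.72-fold (0.78 ± 0.11, adjusted p = 0.00019), from 10.30, 10.53 and 10.94 to 11.04, 11.40 and 11.55. KIF20A, a kinesin of cytokinesis, rose by 0.66 with overlapping groups, and fell below the fold minimum without ENU replicate 1 (0.56), ENU replicate 4 (0.58) or control replicate 6 (0.57). In 1 fit of all groups its adjusted p was 0.1. CCNB1 read -0.04 and MKI67 -0.39, neither called, and another probe set of each went the other way.

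NCS and MMS differed from ENU in these genes. NCS had 16 of the 44 G1/S genes lower and none higher (0.966% and 1.48% of all genes), with a median of -0.76, and 8 of the 51 mitotic genes lower with a median of -0.49. MMS had 17 G1/S genes higher and none lower (4.46% and 6.56% of all genes), with a median of 0.43, and 3 mitotic genes each way. Compared directly, ENU samples had 13 G1/S and 30 G2/M genes higher than NCS samples and none lower (5.3% and 8.16% of all genes), and 21 G1/S genes had an ENU effect below that of MMS (4.29% of all genes). PMS1 and PRIMPOL, at -0.51 and -0.68 with ENU, read 0.50 and 0.41 with MMS. ENU minus MMS was -1.01 ± 0.09 and -1.09 ± 0.16 (adjusted p = 1.9e-07 and 5.9e-05).

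Histone genes, which package DNA, were lower with ENU than with NCS in 6 of 13 members and higher in 2 (8.16% and 5.3% of all genes). Against control 4 of the 13 fell with ENU (30.8%, where 6.11% of all genes fell) and none rose. H2AC6 fell from 7.97, 8.32 and 8.76 to 6.98, 7.19 and 7.81 (-1.0 ± 0.16, adjusted p = 0.00033), with no overlap. It rose by 1.04 with NCS and fell by 1.52 with MMS, and ENU minus NCS was -2.04 ± 0.15 (adjusted p = 1.3e-06). H2BC4 fell by 0.85, H2BC5 by 0.74 and H2BC12 by 0.68, and ENU minus NCS was -2.36, -1.79 and -1.06 for them. H2BC12 went below the fold minimum (-0.56) with control replicates 1 and 2 left out. H2BC21 changed by -0.53 with ENU (adjusted p = 0.045, below 1.5-fold), 1.33 with NCS and -1.04 with MMS, and was called without ENU replicate 2 or control replicate 6 (-0.67 in both).

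**Figure D2:**
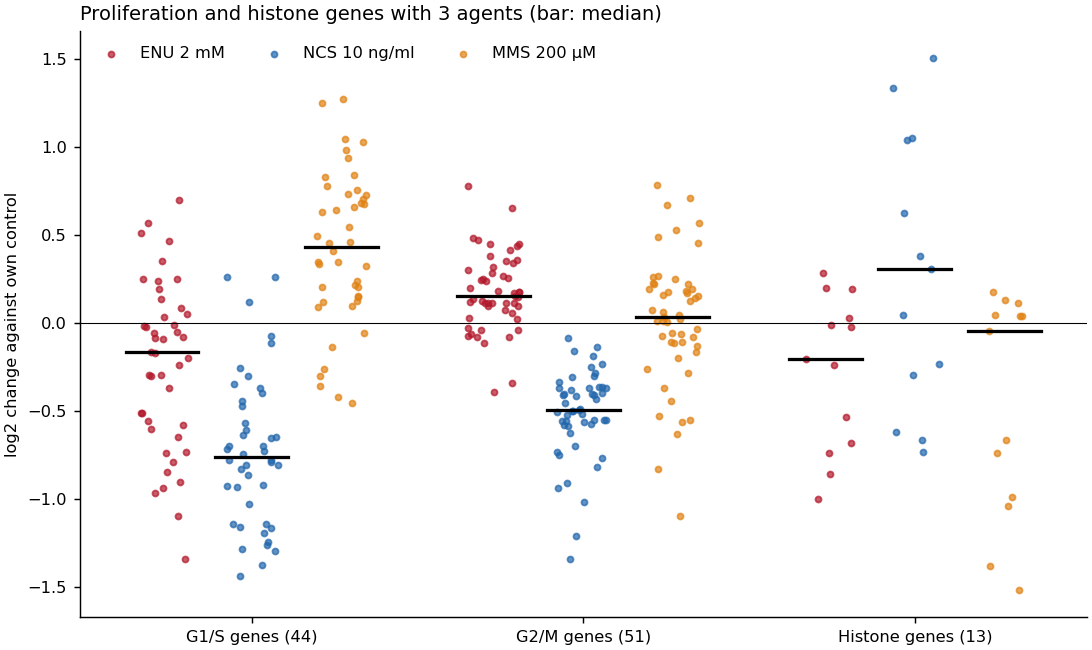
Log2 change against its own control of each tested G1/S (44), G2/M (51) and histone (13) gene for ENU, NCS and MMS; bars are medians. The medians with NCS are -0.76 and -0.49 for the cell cycle groups, and those with ENU are -0.16 and 0.16.

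Promoters of 3 cell cycle genes are printed because E2F-like letters and the cell cycle homology element are found in them. In MCM6 (chr2:135876394-135876693, minus strand) and POLA1 (chrX:24693668-24693967, plus) capitals mark TTGGCGC or TTCCCGC on either strand, and in CDK1 (chr10:60778228-60778527, plus) they mark TTTGAA on either strand.
MCM6: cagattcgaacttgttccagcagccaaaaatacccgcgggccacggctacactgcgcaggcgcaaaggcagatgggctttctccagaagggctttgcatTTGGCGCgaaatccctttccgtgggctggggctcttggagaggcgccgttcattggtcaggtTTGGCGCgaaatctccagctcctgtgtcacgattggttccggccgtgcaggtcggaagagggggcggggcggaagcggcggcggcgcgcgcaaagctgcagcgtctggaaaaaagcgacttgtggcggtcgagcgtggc
POLA1: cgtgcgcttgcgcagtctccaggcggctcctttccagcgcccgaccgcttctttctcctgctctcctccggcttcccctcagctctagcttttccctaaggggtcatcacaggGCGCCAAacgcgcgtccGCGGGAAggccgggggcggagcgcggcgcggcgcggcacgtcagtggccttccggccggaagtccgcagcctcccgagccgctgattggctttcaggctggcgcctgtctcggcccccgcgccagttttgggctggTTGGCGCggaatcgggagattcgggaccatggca
CDK1: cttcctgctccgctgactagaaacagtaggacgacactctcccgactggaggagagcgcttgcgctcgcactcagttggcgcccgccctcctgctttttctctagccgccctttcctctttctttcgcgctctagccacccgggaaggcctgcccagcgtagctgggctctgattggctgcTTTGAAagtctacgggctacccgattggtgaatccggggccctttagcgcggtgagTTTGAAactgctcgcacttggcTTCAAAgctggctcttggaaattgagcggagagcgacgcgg
TTGGCGC or TTCCCGC occurred in 18% of all windows, in 27 of 37 G1/S genes with one (73%) and in 8 of 9 that fell (88.9%). TTTGAA occurred in 14% of all windows and in 32 of 43 G2/M genes (74.4%). All 3 were searched on both strands, and 1 window can hold several. Among all genes that fell, TTGGCGC or TTCCCGC was found in 17.5%.

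Long genes fell more often than short ones. Genomic span was taken from the gene list of GRCh38.p14. Of 835 genes over 200 kb, 197 fell and 21 rose with ENU (23.6% and 2.51%), where 6.11% of all genes fell. The share that fell was 3.88% under 20 kb, 3.69% from 20 to 50 kb, 5.52% from 50 to 100 kb and 8.81% from 100 to 200 kb. Median changes in the same bins were 0.02, 0.05, 0.03 and -0.06, and -0.25 over 200 kb. Over 500 kb, 65 of 142 genes fell (45.8%) and 5 rose, with a median of -0.51.

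The shift was seen in every library. The mean over the 835 genes ran from 6.58 to 6.71 in the ENU samples (median 6.67) and from 6.87 to 7.04 in the controls (median 6.98), with no overlap. The median control level differed little between bins, from 7.07 to 7.67. Among genes with a control mean of at least 6, 143 of 565 over 200 kb fell (25.3%), and 3.89% of those under 20 kb. With control replicates 1 and 2 left out 234 of the 835 fell, and 922 of all 11496 genes. With probe sets averaged in place of the brightest the median was -0.17 and 105 of 722 fell, and 438 genes of any span fell. Genes that fell had a median span of 80.5 kb, those that rose 27.5 kb and all tested 30.6 kb.

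MMS showed the same pattern and NCS did not. With MMS 190 of the 835 long genes fell (22.8%, against 6.56% of all), with a median of -0.20, and with NCS 5 fell (0.599%, against 0.966%), with a median of 0.06. In the direct test 251 of the 835 were lower in ENU than in NCS samples (30.1%, where 8.16% of all were) and 15 higher. The effect of ENU was below that of MMS in 57 (6.83%) and above it in 48 (5.75%), where 4.29% and 4.24% of all genes were.

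**Figure D3:**
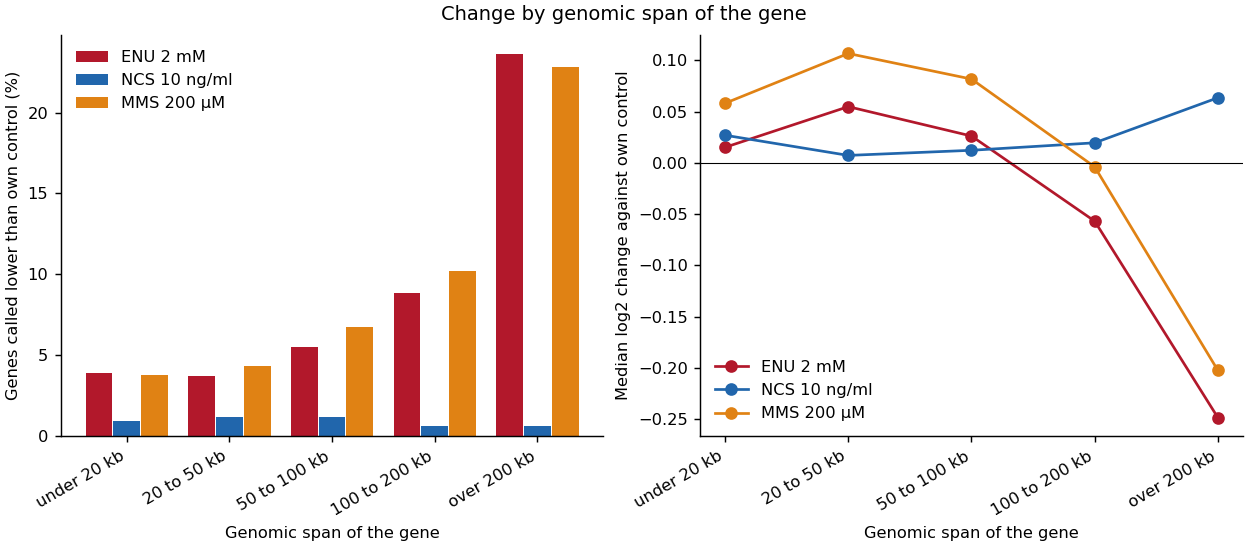
Left, percent of genes called lower than their own control; right, median log2 change, in 5 bins of genomic span, for ENU, NCS and MMS. In the bin over 200 kb 23.6% fell with ENU, 22.8% with MMS and 0.599% with NCS.

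Of the 12 largest falls 8 were genes over 200 kb, as were 835 of all 11496 genes tested. DPYD, which breaks down pyrimidines and spans 843 kb, read 6.99, 7.15 and 7.68 with ENU and 8.95, 9.13 and 9.28 in control, a 3.71-fold fall (-1.89 ± 0.11, adjusted p = 1.9e-07). NALF1 (704 kb), an accessory subunit of the sodium leak channel, fell by 1.90 ± 0.16 (adjusted p = 3.6e-06), from 6.76, 7.12 and 7.29 to 4.50, 5.18 and 5.68. NTNG1 (345 kb), a netrin-related axon guidance protein, fell by 1.87 ± 0.10 (adjusted p = 9.8e-08) and CNTN3 (352 kb), a contactin, by 2.15 ± 0.14 (adjusted p = 4.3e-07). None of these groups overlapped. BNC2 (461 kb), a zinc finger protein, fell by 1.98 (-1.91 to -0.94 on its other probe sets), the microRNA host MIR100HG (395 kb) by 1.92 and the metalloprotease PAPPA (249 kb), at -1.99, fell 3.98-fold. PDE7B (344 kb), a cAMP phosphodiesterase, fell by 2.60 ± 0.36 from 5.39, 7.11 and 7.26 to 3.39, 3.90 and 5.15, and by 1.27 on another probe set.

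The other 4 falls were in shorter genes. LRRC17, a leucine-rich repeat protein of 32.1 kb, fell 6.85-fold (-2.78 ± 0.25, adjusted p = 4.5e-06), from 8.51, 8.62 and 9.26 to 5.01, 6.04 and 6.67. SNAP25 (88.6 kb), a SNARE of vesicle fusion, fell by 2.50, MIR210HG, the host of a hypoxia microRNA, by 1.91 and FUT8-AS1 by 2.11 (0.50 on another probe set). FUT8-AS1 is an antisense gene and is uncertain here, since strand handling is not given in the sources used here. Several falls were smaller where all probe sets of a gene were averaged, at -0.65 for DPYD, -0.74 for NTNG1, -0.66 for MIR100HG and -1.51 for LRRC17, whose other probe sets all had a mean under 4 over all arrays. PAPPA gave -1.25, BNC2 -1.36 and SNAP25 -1.88 in the same way. All 12 falls were also lower than in NCS samples in the direct test, and all 12 were called lower with MMS. Of all genes 8.16% and 6.56% were. The falls were picked on the same ENU values that the test against NCS uses, so that count is not separate support.

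The longest genes did not all fall. Of the 20 longest genes tested, 6 fell, 1 rose and 14 had a change below 0. Of all genes 6.11% fell and 4.77% rose, and 5889 of 11496 had a change above 0. PTPRD (2299 kb), a receptor phosphatase, fell by 0.93, TENM2 and TENM3, teneurin adhesion proteins, by 1.08 and 0.93, and the values of PRKG1, the cGMP kinase, and GPC6, a glypican, which fell too, were -1.61 and -1.59. CSMD3 rose, from a control mean of 3.79 to 4.83, and DMD, the dystrophin gene of 2220 kb, read 0.39 and was not called.

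The largest rises were of other kinds. Rises and falls were ranked with group means under 4 set to 4 and among genes whose groups did not overlap. CEACAM1, at 3.38 without that floor, ranked lower with it, as did CSTA and ACER2 (2.68 and 2.67 without it). AKR1B10, an aldo-keto reductase of the NRF2 set, read 8.49, 8.84 and 9.74 with ENU and 3.68, 4.27 and 6.67 in control, a 21.8-fold rise (4.44 ± 0.42, adjusted p = 6.7e-06). Its control replicate 2 was at 6.67 and the other 5 lower, and without it the change was 4.87. CRYAB, a small heat shock protein, rose at least 15.1-fold (adjusted p = 1.4e-06), from 2.77, 2.88 and 4.84 to 7.15, 8.09 and 8.66. TREM2, a lipid-binding receptor of the immunoglobulin family, rose at least 12.2-fold (adjusted p = 8.7e-07), from 2.98, 3.08 and 4.79 to 7.16, 7.54 and 8.17. For each of the 3 the highest control was replicate 2, and no ENU sample overlapped the controls.

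HECW2, a ubiquitin ligase spanning 399 kb and the single gene over 200 kb among the 12 largest rises, rose 8.59-fold (3.10 ± 0.18, adjusted p = 1.8e-07), from 5.38, 5.72 and 6.35 to 8.32, 8.85 and 9.26. LRATD1 rose by 2.93, ELAPOR1 by 2.70, NECTIN4, a cell adhesion protein, by 2.64, PLAC8 by 2.54 and STON2, an endocytic adaptor, by 2.47. LCE1B, of the cornified envelope, rose at least 5.43-fold. ATF3, a stress-induced transcription factor, rose 5.42-fold (2.44 ± 0.20, adjusted p = 2.6e-06), from 5.19, 5.85 and 6.42 to 7.75, 8.26 and 8.57. Averaging all probe sets of a gene gave 1.56 for HECW2, 1.65 for LRATD1, 1.62 for ELAPOR1, 1.40 for ATF3 and 0.93 for STON2. All 12 rises were higher than in NCS samples in the direct test, and 9 were called higher with MMS. Of all genes 5.3% and 4.46% were. The rises too were picked on the ENU values used against NCS, so the count of 12 there is not separate support.

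**Figure D4:**
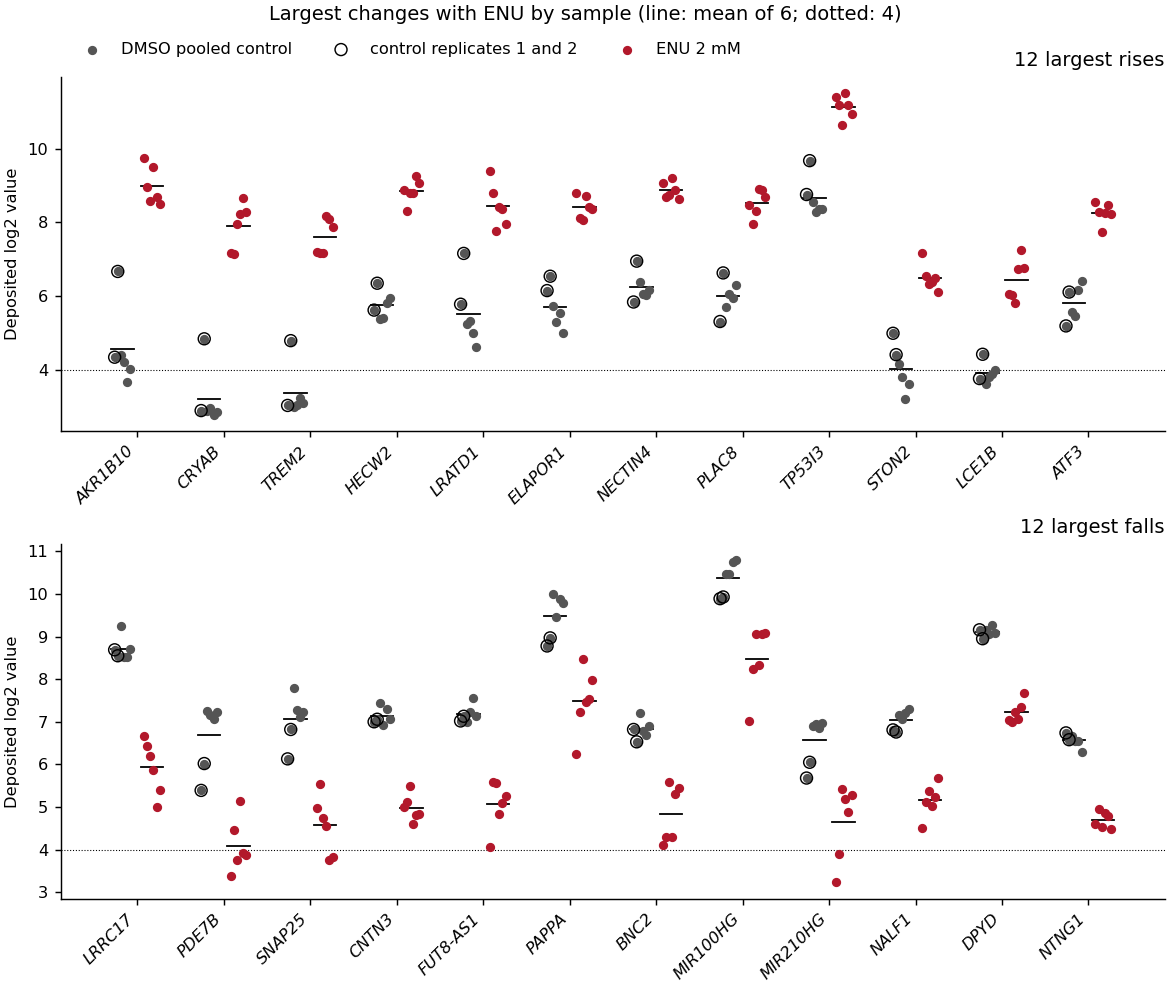
Deposited log2 value of the 12 genes with the largest rise (top) and the 12 with the largest fall (bottom) in each ENU sample (red) and DMSO pooled control (grey, replicates 1 and 2 ringed); lines are means and the dotted line is 4. Ringed control replicate 2 is the highest control for AKR1B10, CRYAB and TREM2.

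Some of these genes differed between ENU and NCS samples or between the effects of ENU and MMS. CRYAB stayed under 4 with NCS (mean 2.96), and was at least 3.91 higher in ENU than in NCS samples (adjusted p = 4.9e-08). AKR1B10 was 3.29 ± 0.22 higher than in NCS samples (adjusted p = 4.6e-07) and its effect 2.94 ± 0.50 above that of MMS (adjusted p = 0.00029). HECW2 gave 2.80 and 2.35 in the same tests, and TREM2 2.35 against NCS. CEACAM1, an adhesion molecule, was at least 2.33 higher than in NCS samples and CSTA, a cysteine protease inhibitor, at least 2.22. CSTA rose by 2.47 with MMS too. LRRC17 (-2.98), PDE7B (-2.95), SNAP25 (-2.93), CNTN3 (-2.72) and RAB26 (-2.41) were lower than in NCS samples, and GALNT15, under 4 with ENU, by a bound of -2.59. LRRC17, PDE7B, SNAP25 and CNTN3 fell with MMS too (-3.37, -1.96, -2.85 and -1.41), and the ENU effect was not called different from that of MMS for LRRC17, PDE7B and SNAP25 (adjusted p = 0.26, 0.3 and 0.55).

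ENU and NCS samples differed in 1547 genes (609 higher, 938 lower with ENU; 13.5% of all). With an equal median for each array the split was 835 and 740, the median of all genes having moved by 0.08. The effects of ENU and MMS differed in 980 genes (487 above and the rest below, 8.52% of all). This became 387 and 792 with equal medians, a shift of -0.08, and 608 and 374 without control replicate 3 of MMS. That array had an upper quartile of 5.54 over its probe sets, against 6.11 to 6.16 in the other controls of MMS. The MMS changes and counts elsewhere in the text include it. PLAC8, which fell by 1.08 with MMS, had an ENU effect 3.62 ± 0.28 higher (adjusted p = 1.4e-08). FLG, the filaggrin gene, rose by 1.47 with ENU and fell by 1.53 with MMS, a difference of 3.0. VCAN and CTHRC1, of the matrix, read 0.24 and 0.31 with ENU and fell by 2.43 and 2.08 with MMS, so that their effects differed by 2.67 and 2.38. In the other direction AKR1C1 differed by -2.65, CXCL8 by -2.31, AJAP1 by -1.88, ANXA10 by -1.82, CCDC71L by -1.73 and APCDD1L-DT by -1.69. For CCDC71L another probe set read 0.16 with ENU.

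Among other stress pathways, the ATF4 genes moved in single members. Of 34 ATF4 targets 4 rose and 2 fell (11.8% and 5.88%, against 4.77% and 6.11% of all genes), with a median of 0.02. DDIT3 (CHOP) rose by 0.94 ± 0.21 (adjusted p = 0.0039) and SESN2, also counted in a p53 list above, by 0.94. DDIT4 and VLDLR fell by 0.94 and 0.61, while ASNS, the asparagine synthetase gene, read 0.26 (adjusted p = 0.48). SLC7A11, the cystine transporter, read 0.79 with wide spread (7.08 to 10.10 with ENU, adjusted p = 0.14). It was called with the replicate block (adjusted p = 0.043) and without ENU replicate 1 (1.16, adjusted p = 0.0029). NUPR1, under 4 in control, rose at least 1.4-fold (adjusted p = 0.024, from the levels as deposited). The call was lost with values under 4 set to 4 (adjusted p = 0.12), and without ENU replicate 2, control replicate 3, or both control replicates 1 and 2 (adjusted p = 0.052, 0.054 and 0.055). DDIT3 changed by -0.06 with NCS and fell by 0.80 with MMS, and the ENU effect was 1.74 above that of MMS (adjusted p = 0.00014). None of 23 endoplasmic reticulum stress genes was called by limma (2 higher and 4 lower at an unadjusted p under 0.05). ERN1, a sensor of unfolded proteins, was called without control replicate 1 (-0.60) and without both control replicates 1 and 2 (-0.72).

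Of 27 NRF2 genes 4 rose and none fell (4.77% and 6.11% of all genes), and 25 had a change above 0, with a median of 0.21. The mean over the 27, which include AKR1B10, ran from 8.57 to 9.19 in the ENU samples. In the controls it ran from 8.22 to 8.44, so the groups did not overlap. NCS had 1 of the 27 lower (0.966% of all genes) and MMS had 10 higher (4.46%). NQO1, a quinone reductase, rose 1.89-fold (0.92 ± 0.11, adjusted p = 2.9e-05), from 9.58, 9.80 and 9.96 to 10.25, 10.77 and 10.89, and HMOX1, haem oxygenase, by 0.78 (adjusted p = 0.0017). NQO1 changed by -0.17 with NCS and 1.32 with MMS, and HMOX1 by -0.06 and -0.42. AKR1C1 rose by 1.55 (adjusted p = 0.036), with ENU replicate 2 at 9.68 and a median of 6.23. Its call was lost on leaving out ENU replicate 6 or any 1 of the 6 controls, with adjusted p from 0.051 to 0.063, and where probe sets were averaged (0.58). Of 19 chaperones DNAJB4 and HSPB8 rose and DNAJB6 fell (0.88, 0.65 and -0.86). That is 10.5% and 5.26%, against 4.77% and 6.11% of all genes. The call of HSPB8 was lost without ENU replicate 1 or 2 or control replicate 4, 5 or 6 (0.50 to 0.66). With values under 4 set to 4 the calls of AKR1C1 and HSPB8 were lost too (adjusted p = 0.064 and 0.053). SLC30A1, a zinc exporter, was the 1 of 7 metallothionein and zinc genes that rose (0.59), and its call was lost with any 1 of 7 libraries left out.

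Metabolic and signalling lists fell in a few members each. Of 24 hypoxia and glycolysis genes 4 fell (16.7%, where 6.11% of all genes fell) and none rose, with a median of -0.25. PDK1, a kinase that inhibits pyruvate dehydrogenase, fell 2.87-fold (-1.52 ± 0.08, adjusted p = 9.8e-08), from 8.85, 9.03 and 9.14 to 7.25, 7.51 and 7.64 with no overlap. It changed by -0.01 with NCS and -0.25 with MMS. The ENU samples were 1.51 lower than NCS samples (adjusted p = 2e-07), and the ENU effect was 1.27 below that of MMS (adjusted p = 2.7e-06). ALDOC fell by 0.97, HK2, hexokinase, by 0.76 and the mitophagy receptor BNIP3 by 0.69. SCD, the stearoyl desaturase, fell by 0.95 and SREBF1, the sterol regulator, by 0.66 (0.41 and not called where probe sets were averaged). HSD17B7 rose by 0.81, and these were the 3 of 21 lipid synthesis genes that changed. The share that fell was 9.52%, not far from the 6.11% of all genes.

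Interferon and matrix genes fell in 4 members each, of 22 and 39 (18.2% and 10.3%, where 6.11% of all genes fell). OAS1, the oligoadenylate synthetase, fell by 0.91 ± 0.15 (adjusted p = 0.00049) and IFIH1, an RNA sensor, by 0.90 (0.32 and not called where probe sets were averaged). IFI35 fell by 0.61 (adjusted p = 0.048), a call lost in 8 of 12 fits without 1 library. IRF1 fell by 0.63, and by less than 1.5-fold without ENU replicate 6 (-0.58) or control replicate 3 (-0.57). TNC, LAMA4, COL5A1 and COL13A1, all of the extracellular matrix, fell by 0.83, 0.80, 0.78 and 0.70, TNC by 0.34 and with no call where probe sets were averaged. With MMS 21 of the 39 matrix genes fell, where 6.56% of all genes did, and COL5A1 fell by 2.01. None of 16 inflammatory genes was called by limma (1 higher and 2 lower at an unadjusted p under 0.05). IL1A read 1.01 (adjusted p = 0.07) and CXCL8 -0.93 (adjusted p = 0.1), and both were called with the replicate block (adjusted p = 7e-04 and 0.013).

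Of 27 immediate early genes 4 rose and 1 fell (14.8% and 3.7%, against 4.77% and 6.11% of all genes). ATF3 rose most, then IER5 by 1.09 and DUSP5, an ERK phosphatase, by 0.72. PHLDA1 fell by 1.10 with overlapping groups, and its other probe sets read -0.91 to -0.01. MYC read -0.52 (adjusted p = 0.044, below 1.5-fold), and passed that fold without ENU replicate 5 or 6 or control replicate 1 or 2 (-0.59 to -0.60). In autophagy and the lysosome 2 of 23 genes rose (NEU1 by 0.91, ATG4A by 0.82) and 2 fell (VMP1 by 0.87, ATG7 by 0.79). ATG7 spans 304 kb and fell by 0.57, not called, where probe sets were averaged. The share each way was 8.7%, beside 4.77% higher and 6.11% lower of all genes. UTP20 fell by 0.90, the 1 of 25 ribosome biogenesis genes that changed, and none of 26 proteasome subunits was called by limma (3 higher and 1 lower at an unadjusted p under 0.05).

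**Figure D5:**
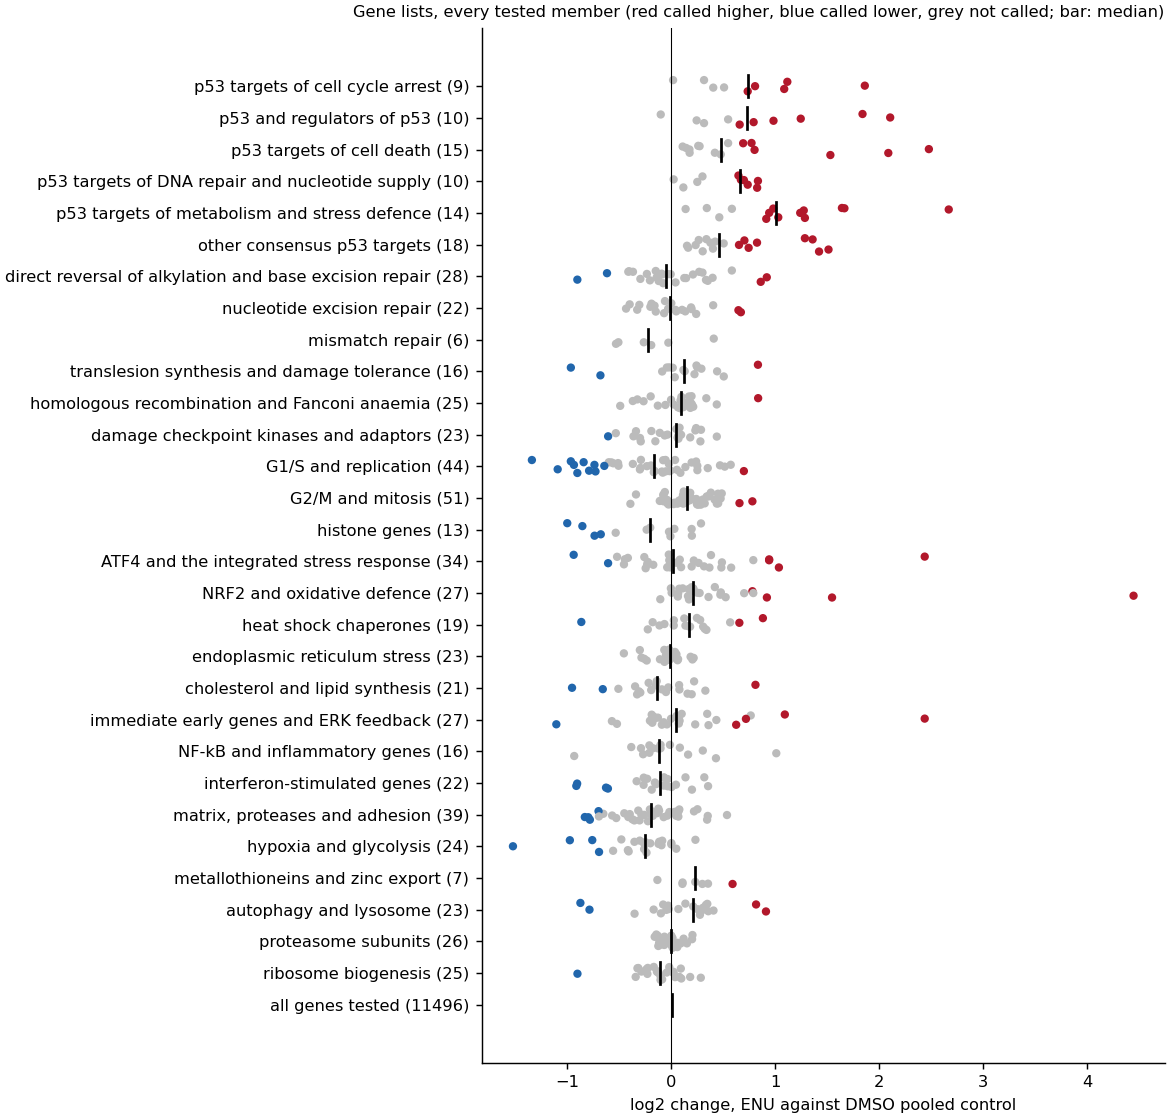
Log2 change with ENU of every tested member of 29 gene lists, with the number tested in brackets; red points were called higher, blue lower, grey not called, and bars are medians. The 6 p53 lists at the top have medians from 0.46 to 1.01 and no blue point.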

How the data were processed

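Total RNA of HT1080 cells was hybridised to Affymetrix HT HG-U133+ PM arrays of 54715 probe sets. GCRMA and Partek are named in the submitters' processing notes, without versions, as what the authors used for the deposited log2 values, 1 per probe set and array. The arrays of ENU, NCS and their control look normalized together and those of MMS and its control apart, so levels were not set across them.

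Array controls aside, 54613 probe sets remained. Those with 1 gene (40914) were used, and those with several (864) or none (12835) were not. Each of 19774 genes was read from its brightest probe set, judged by the mean of all arrays. Testing needed a mean of 4 or more in 1 of 17 groups or more, which left 11496 genes. Groups were compared with limma 3.58.1 (R 4.3.3, with the data.table package), fitting only the groups compared, using moderated variances (eBayes) and p-values adjusted by Benjamini-Hochberg. Every adjusted p in the text is from limma. Figures and counts used Python 3.11.15, pandas 2.3.3, numpy 2.4.6 and matplotlib 3.10.9. The lists are described without a test. The comparison, the members of the lists and the tests were chosen with earlier results of these data known. Named genes are a fixed panel, the 12 largest rises and falls with groups that do not overlap, up to 4 members of each list and 6 genes each way against NCS and MMS; the 20 longest genes and the p53 promoter match were added after seeing the data. Some genes of the panel and lists are not analysed here.

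Same-numbered ENU and control samples deviated together over the tested genes (r from 0.405 to 0.615 in the 6 pairs), as did ENU and NCS (0.41 to 0.628). ENU replicate 6 correlated more with another control than with control replicate 6. The numbers were used as pairs in the replicate block only. All other SE and adjusted p values in the text are from limma fits that ignore the pairing. For MMS and its control r ran from -0.134 to 0.316, and they were read as unpaired, although the replicate block took their numbers too. On simulated data of 11496 genes the method recovered 98.5% of 67 genes changed 2-fold for ENU against control with 1 false call, 100% for ENU against NCS and 95.5% for the difference from MMS. The simulated noise was independent between samples, without the pairing seen in the data. Changes were put only into genes with a control mean of 6 or more. Recovery at 1.5-fold, the minimum for a call, is not given here. The number of arrays and, for genes near 4, signal over background limit the precision.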

Additional observations from a re-analysis of the deposited data

Results flagged for a closer look

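In 302 sets of 6 values (list means and named genes by group), 11 had a sample set far from the other 5, and chance flags about 1 in 20. Control replicate 2 was high for AKR1B10 (6.67), CRYAB (4.84), TREM2 (4.79) and TP53I3 (9.68). ENU replicate 3 was low in the mean of the p53 cell cycle list (9.63) and of the p53 repair list (9.03). ENU replicate 6 was low for MDM2 (10.24) and ENU replicate 1 for NQO1 (10.25), while ENU replicate 2 was high for AKR1C1 (9.68). Control replicate 1 was low for GDF15 (10.59) and control replicate 3 high for LRRC17 (9.26).

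Genes that differed between ENU and NCS samples were marked by the direct test. These are fitted differences, and those of CRYAB, CEACAM1, CSTA and GALNT15 involve a group mean under 4. The largest positive differences were CRYAB 4.95, AKR1B10 3.29, CEACAM1 3.22, HECW2 2.80, TREM2 2.35 and CSTA 2.32. The largest negative ones were LRRC17 -2.98, PDE7B -2.95, SNAP25 -2.93, GALNT15 -2.93, CNTN3 -2.72 and RAB26 -2.41. Genes whose ENU effect differed from the MMS effect were PLAC8 3.62, FLG 3.0, AKR1B10 2.94, VCAN 2.67, CTHRC1 2.38 and HECW2 2.35 above it, and AKR1C1 -2.65, CXCL8 -2.31, AJAP1 -1.88, ANXA10 -1.82, CCDC71L -1.73 and APCDD1L-DT -1.69 below it.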

How the results depend on the processing

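Counts for ENU against control, ENU against NCS and the difference from MMS were 2598, 3263 and 1754 with every probe set on its own, 3817, 4251 and 2084 with no fold minimum, and 347, 448 and 251 with a fold minimum of 2. These follow from the number of features or the threshold. Leaving out 1 replicate gave 1181 to 1389, 1411 to 1797 and 889 to 1095 calls, a p53 median of 0.64 to 0.69 and a median over 200 kb of -0.26 to -0.24. The median over 200 kb was -0.17 with probe sets averaged, and the cause was not tested. The replicate block for the pairing gave 1292, 1602 and 1116 calls. It added the calls of SLC7A11, IL1A, CXCL8 and ANXA10 and changed no other call among the genes named for ENU against control. With control replicates 1 and 2 left out, chosen after seeing the data, 1630 genes were called, and 1182 of the 1250 kept their call. No filter, a filter at 6 or on the groups compared, averaged probe sets, values under 4 set to 4, equal medians, quantile normalization, 1 fit of all groups, and trended robust variances kept the total counts within 1.5 times. By direction, averaged probe sets gave 412 higher and 438 lower for ENU against control and 468 and 572 against NCS, and equal medians gave 387 and 792 for the difference from MMS. Depth does not apply to arrays. Genes near 4 are limited by signal over background: 107 called genes had a control mean under 4 and 92 an ENU mean under 4.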
